A study of Mus musculus with 9 samples.

Results

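In RAW264.7 macrophages, 10 glutathione transferase genes were followed through treatment with LPS and with LPS + Ska, where Ska is skatole. Mgst3, Gstm1, Gstt2 and Gstp1 fell with LPS, and Gstm1, Gstp1 and Mgst3 rose when skatole was added, with Gstm1 and Mgst3 still below the control. The 10 genes were chosen by symbol from a table of 55401 genes. They are Gstm1 and Gstm5 (mu class), Gstp1 (pi class), Gsto1 (omega class), Gstt2 and Gstt3 (theta class), Gsta4 (alpha class), Gstz1 (zeta class), and Mgst1 and Mgst3, which encode microsomal enzymes of the membrane family. Of these 10 genes, 7 had a mean of at least 1 TPM (a transcript level scaled for the length of the transcript and for the total of the sample) and were tested. Gstm5 lay below that limit, and Gsta4 and Mgst1 were listed at 0 in all 9 samples.

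RAW264.7 is a mouse macrophage-like line that was derived from a tumour induced in male mice by Abelson leukaemia virus. The cells were wild type and received DMSO (the solvent, a control), LPS with DMSO, or LPS + Ska. LPS is lipopolysaccharide, a bacterial cell wall component that activates macrophages, and skatole is 3-methylindole, a product of bacterial tryptophan breakdown in the gut. RNA was sequenced from 3 samples per group, numbered 5, 6 and 7, after 24 h of treatment by the labels and the results section, while the methods section gives a longer time. The dose of skatole used for sequencing was not given in the sources used here. No group received skatole without LPS, and nothing in the labels states whether the 3 samples of a group came from separate cultures, so the p-values measure the spread between these samples, which may be technical.

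Before any result, 1 property of the table must be known. With LPS and with LPS + Ska, replicate 5 was the mean of replicates 6 and 7, within 1e-05 TPM, for all 17950 and all 17658 genes with both of these above 0. In the DMSO group this held for 10 of 16674 genes. A gene thus has no more than 2 independent values in either treated group, and the SD over the 3 columns there equals the difference between the 2 values from which they could be built, where no column is listed at 0. The fits below nevertheless take the 3 columns as independent. Their SEs, intervals and p-values thus count more values than are independent, and can be too small. Sequencing depth cannot be read from TPM and is unknown. Of the macrophage markers examined, all 10 were expressed in these samples, and T cell and epithelial markers were listed at 0 throughout. The summed TPM of B cell, of fibroblast and of hepatocyte markers did not exceed 0.672 in any column.

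Glutathione transferases join glutathione, the main small thiol of the cell, to electrophilic compounds, which are then exported as conjugates. The cytosolic enzymes are dimers grouped into classes by sequence, whereas the microsomal ones sit in membranes and belong to a separate family that also makes and binds eicosanoid lipids. Several of these genes are known targets of the transcription factor Nrf2, and in macrophages LPS is known to alter glutathione metabolism.

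Because relatives in the family can share reads, the sequences were compared first. Gstp1 (GRCm38 chr19:4035407-4037985, minus strand) lies beside Gstp2 (chr19:4040285-4046023, minus strand), and their coding sequences were identical at 621 of 633 positions (98.1%). The first 90 coding bases are shown because they hold 6 of the 12 differences, marked in capitals, whereas the last 303 coding bases, from 331 to 633, did not differ.
Gstp1: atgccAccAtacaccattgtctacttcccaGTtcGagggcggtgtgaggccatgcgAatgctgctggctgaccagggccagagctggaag
Gstp2: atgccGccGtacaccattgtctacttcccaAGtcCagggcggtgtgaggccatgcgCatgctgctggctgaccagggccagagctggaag
Of the 100-base stretches of the Gstp1 transcript, 52.8% also occurred in transcripts of Gstp2 or the pseudogene Gstp-ps. The share was 23.9% for Gstt3, with the locus Gm20441, which overlaps its exons on the same strand, and 7.73% for Gstm1, with Gstm2-ps1, Gm8834 and Gstm3. For Gstm5, Gsto1, Gstt2, Gsta4, Gstz1, Mgst1 and Mgst3 no 100-base stretch was shared with another gene in the same direction. Exons of genes on the opposite strand covered 9.14% of the exonic bases of Gstz1 (Pomt2) and 13.9% of those of Gstm5, and without strand such reads cannot be told apart. The members themselves were far apart. Gstm1 and Gstm5 were identical at 69.5% of aligned coding positions, Gstt2 and Gstt3 at 60.8%, and Mgst1 and Mgst3 at 43.4%.

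In the DMSO samples the order of the levels was Gsto1, Mgst3, Gstm1, Gstz1, Gstp1, Gstt2 and Gstt3. Gsto1 had a mean of 80.3 ± 7.33 TPM (SD, n = 3) and Mgst3 of 58.7 ± 5.23 TPM, and these 2 genes held 33.3% and 24.3% of the summed TPM of the 10 genes. Only Gstt2 and Gstt3 overlapped among neighbours in this order. With LPS the order became Gsto1, Gstz1, Gstp1, Gstt3, Gstm1, Mgst3 and Gstt2, and the columns of the last 4 overlapped from each to the next. With LPS + Ska, Gstp1, Gstz1 and Gstm1 followed Gsto1 with overlapping columns, Gstt3 and Mgst3 overlapped below them, and Gstt2 was lowest. The sum over the 10 genes was between 225 and 251 TPM in DMSO, between 106 and 111 TPM in LPS and between 157 and 169 TPM in LPS + Ska. The 3 groups did not overlap in this sum.

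**Figure D1:**
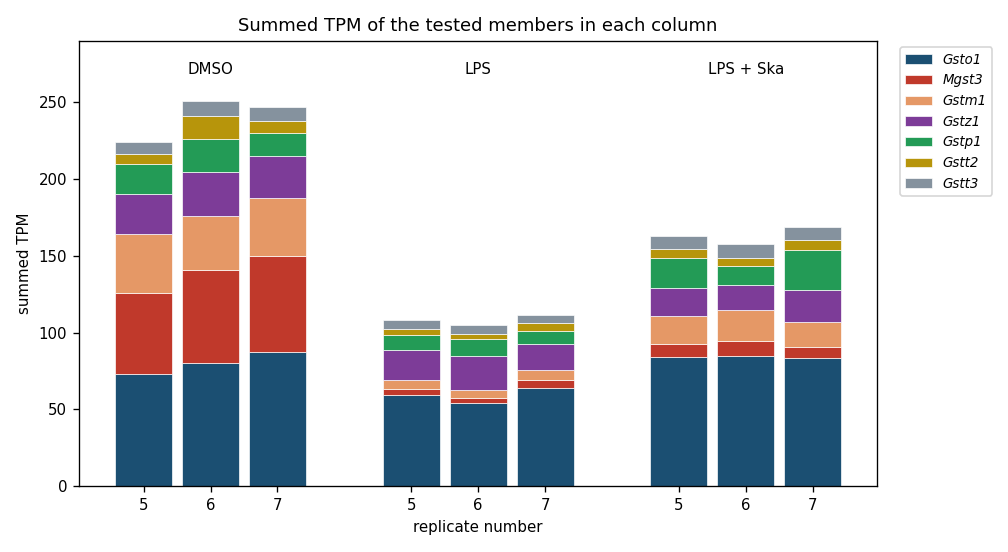
TPM of the 7 tested genes stacked for each of the 9 columns, with replicate numbers on the x axis and summed TPM on the y axis. The stacks reach 224 to 250.5 TPM in DMSO, 105 to 111 in LPS and 157 to 168 in LPS + Ska, and the Mgst3 band takes on average 24.3% of the sum over all 10 genes in DMSO, 4.12% in LPS and 5.01% in LPS + Ska.

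The first comparison, LPS against DMSO, asks how activation altered the genes. A gene was called higher or lower at an adjusted p below 0.05 in limma with a fold change above 1.5 or below 0.67 on the log2(TPM + 1) scale. Of the 7 tested genes, 4 were called lower (Mgst3, Gstm1, Gstt2 and Gstp1) and 0 higher. Among all 12819 genes tested, 20% were called lower and 12.7% higher. The median log2 fold change of the 7 genes was -0.87, beside -0.07 over all tested genes. At the adjusted p alone, all 7 were below the threshold, each with a lower mean in LPS. By that rule, 4380 of the 12819 genes were lower and 3354 higher. At an unadjusted p below 0.05, limma gave 0 of the 7 as higher. Below that unadjusted p, in either direction, were 8265 of the 12819 genes.

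The second comparison, LPS + Ska against LPS, asks what skatole added. Here 3 of the 7 genes were called higher (Gstm1, Gstp1 and Mgst3) and 0 lower, while 3.35% of all tested genes were called higher and 6.14% lower. At an unadjusted p below 0.05, 5 of the 7 were higher and 0 lower. Among all 12819 tested genes, 5194 were below that limit, in either direction. The median log2 fold change was 0.51, beside -0.10 over all tested genes. Gstm1, Gstp1, Gsto1, Gstt2 and Gstt3 are named by the study as raised by skatole on these same samples, so their direction is not independent evidence. Of the other 5 genes, 2 were tested and 1 of them, Mgst3, was called higher. After median-ratio scaling, 5 of the 7 were called higher, with Gsto1 and Gstt3 added. That scaling moved the median over all genes from -0.096 to -0.0046, and the split of all calls from 429 higher and 787 lower to 588 higher and 543 lower.

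The third comparison, LPS + Ska against DMSO, asks how far the levels remained from the control. Gstm1 and Mgst3 were called lower and 0 of the 7 were called higher. At an unadjusted p below 0.05 limma gave 4 as lower and 0 as higher. Of all 12819 tested genes, 8573 were below that unadjusted p, in either direction. Over all tested genes 25.3% were called lower and 11.4% higher, with a median log2 fold change of -0.18 that became -0.01 under median-ratio scaling. The split of all calls was 1457 higher and 3243 lower, and 2153 higher and 2295 lower under that scaling. The median of the 7 genes was -0.54, and -0.36 under that scaling. Each pair of these comparisons has 1 group of columns in common, so the values of a gene in them are not independent of each other.

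**Figure D2:**
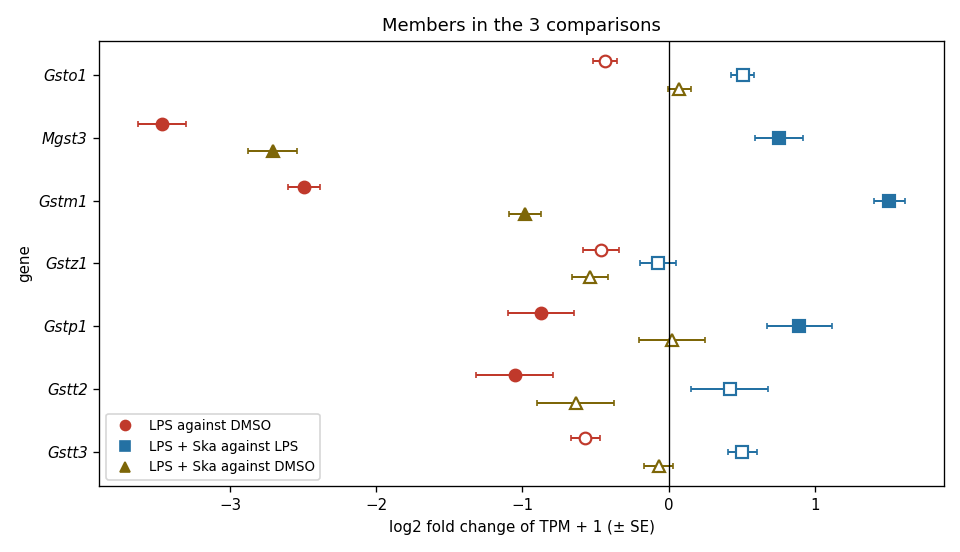
Log2 fold change of TPM + 1 with its SE (bars) for the 7 tested genes, with circles for LPS against DMSO, squares for LPS + Ska against LPS and triangles for LPS + Ska against DMSO. Filled symbols are called genes. All 7 circles lie below 0, and 6 of 7 squares lie above 0.

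Gstm1 encodes the main mu-class enzyme of many mouse tissues (chr3:108012255-108017973, minus strand, 8 exons). Its DMSO samples had 38.6, 35.0 and 37.7 TPM, its LPS samples 5.76, 5.10 and 6.42 TPM, and its LPS + Ska samples 18.3, 20.6 and 16.0 TPM. The 3 groups did not overlap in any pair. The log2 fold change was -2.50 ± 0.11 (SE) for LPS against DMSO (adjusted p = 2.1e-07), and 1.51 ± 0.11 for LPS + Ska against LPS (adjusted p = 3.9e-05), where the mean rose 3.18-fold. With both agents the level stayed at 0.494 of the DMSO mean, a log2 fold change of -0.99 ± 0.11 (adjusted p = 4.6e-05). All 3 calls were kept under each of the 17 alternatives run for this gene.

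Mgst3 encodes a membrane-bound enzyme with transferase and lipid peroxidase activity towards glutathione and is related to leukotriene C4 synthase (chr1:167371966-167393841, minus strand, 6 exons). Its levels were 52.7, 60.8 and 62.5 TPM in DMSO, 4.48, 3.23 and 5.73 TPM in LPS, and 8.14, 9.26 and 7.02 TPM in LPS + Ska. Mgst3 had the largest fall of the 7 genes with LPS, by 3.47 ± 0.17 on the log2 scale (adjusted p = 3.75e-07). Against LPS it rose by 0.76 ± 0.17 (adjusted p = 0.0096), and the groups did not overlap. It was still at 0.139 of its DMSO mean, with a log2 fold change of -2.71 ± 0.17 (adjusted p = 1.4e-06). Without LPS replicate 6 the rise was 0.58 (adjusted p = 0.026), just inside the fold change limit, and was not called.

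Gstm1 and Mgst3 both fell with LPS, and the ratio of their levels did not overlap between any 2 groups. Gstm1 over Mgst3 was 0.733, 0.575 and 0.604 in DMSO, 1.29, 1.58 and 1.12 in LPS, and 2.25, 2.22 and 2.28 in LPS + Ska. The promoters of these 2 genes are shown because both held the core of the xenobiotic response element, GCGTG, a motif recognised by the aryl hydrocarbon receptor (AhR). The sequences are from RefSeq (GRCm38.p6), in the direction of transcription, with the core in capitals. It starts 76 bases before the nearer annotated start of Gstm1 and 22 bases before that of Mgst3.
Gstm1, chr3:108018018-108018077, minus strand: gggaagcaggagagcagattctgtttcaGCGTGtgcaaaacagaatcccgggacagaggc
Mgst3, chr1:167393842-167393901, minus strand: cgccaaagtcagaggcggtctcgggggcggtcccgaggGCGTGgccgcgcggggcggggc
Promoter windows from 250 bases before to 50 bases after a start were found for 8 of the 10 genes. These genes had 12 windows, since some have several starts. The core was present on either strand in 5 of the 12, which belong to Gstm1, Gstm5, Gstp1 and Mgst3, and in 32.4% of all 32851 windows. The antioxidant response element core, TGACNNNGC, was in 2 of the 12 (Gstm5 and Mgst1) and in 12.4% of all windows. In Gstm5 it overlapped a copy of the other core. A kappaB motif was in 0 of the 12 and in 8.46% of all windows. A match is a run of letters and says nothing of binding, nor does the lack of a match in so short a window. By CUT&Tag, a method for protein-DNA contacts, the study reports the NF-kB subunit p65 at the Gstp1 locus, lowered by skatole. That experiment used an earlier time and was not examined here.

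Gstp1 encodes the pi-class enzyme, which also binds signalling kinases. It had 19.2, 21.8 and 15.2 TPM in DMSO, 9.74, 10.9 and 8.60 TPM in LPS, and 19.6, 13.0 and 26.3 TPM in LPS + Ska. Every LPS column lay below every column of the other groups, and the LPS + Ska columns spread over the whole range of DMSO and beyond it. The log2 fold change was -0.87 ± 0.22 with LPS (adjusted p = 0.0078) and 0.90 ± 0.22 for LPS + Ska against LPS (adjusted p = 0.017). Against DMSO it was 0.02, with a 95% interval from -0.48 to 0.53 (adjusted p = 0.935). The rise against LPS was not called without LPS replicate 5, LPS replicate 7 or LPS + Ska replicate 5, where the adjusted p was 0.054, 0.059 and 0.059.

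Gstp2 shares 63.5% of its 100-base stretches with Gstp1 or Gstp-ps, and it had 3.61, 0.901 and 5.10 TPM in DMSO. The sample with the lowest Gstp2 was the one with the highest Gstp1. Their sum was 22.9, 22.7 and 20.3 TPM in DMSO, with an SD of 1.41 TPM beside 3.31 TPM for Gstp1 and 2.13 TPM for Gstp2. In LPS, replicate 6 was highest and replicate 7 lowest for both genes. The SD there was 2.46 TPM for the sum, 1.14 TPM for Gstp1 and 1.32 TPM for Gstp2. In LPS + Ska, Gstp1 and Gstp2 ran in opposite order, with SDs of 6.31 TPM for the sum, 6.68 TPM for Gstp1 and 0.371 TPM for Gstp2. In these tied groups the SD of the sum is fixed by the order, as the sum or the difference of the single SDs. Whether the split of shared reads set these values was not tested. The sum was 13.4, 15.8 and 10.9 TPM in LPS and 22.4, 16.1 and 28.7 TPM in LPS + Ska. With both genes as 1 row, the fall with LPS (log2 fold change -0.69, adjusted p = 0.012) and the rise with LPS + Ska against LPS (0.68, adjusted p = 0.028) were both called. Gstp2 itself was called in none of the comparisons, with log2 fold changes of 0.26 ± 0.39, -0.28 ± 0.39 and -0.02 ± 0.39 (adjusted p = 0.58, 0.62 and 0.97).

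**Figure D3:**
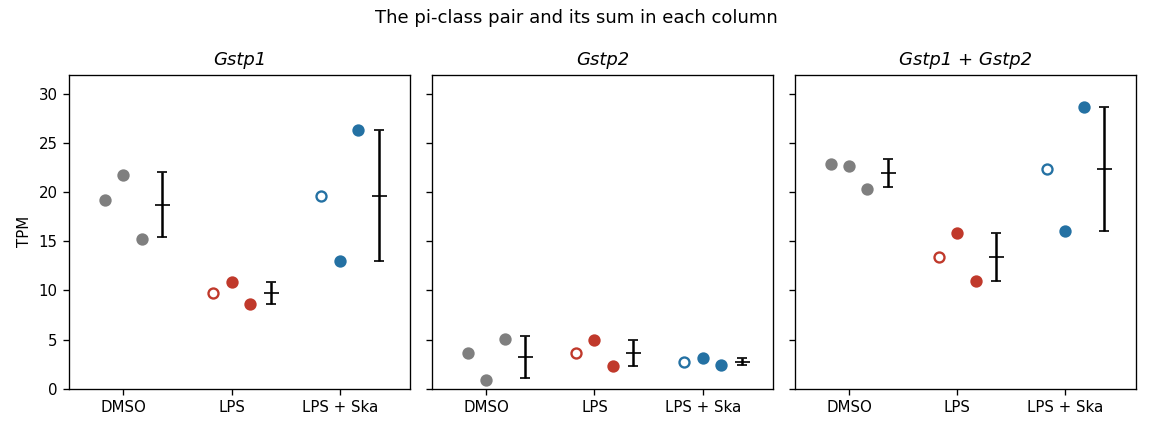
TPM of Gstp1, Gstp2 and their sum in each column, by group, with mean ± SD of the 3 columns (bars) and open circles for replicate 5 of LPS and LPS + Ska. The sum in DMSO stays between 20.3 and 22.9 TPM, while Gstp2 runs from 0.901 to 5.10 TPM there.

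Gsto1 encodes an omega-class enzyme that reduces dehydroascorbate and removes glutathione from proteins, and it was the most abundant member in every column (chr19:47854970-47864790, plus strand, 6 exons). It had 73.0, 80.3 and 87.6 TPM in DMSO, 59.1, 54.5 and 63.7 TPM in LPS, and 84.3, 84.9 and 83.7 TPM in LPS + Ska. The LPS columns lay below all others. The log2 fold change was -0.43 ± 0.08 with LPS (adjusted p = 0.0011) and 0.51 ± 0.08 for LPS + Ska against LPS (adjusted p = 0.0019), both short of the fold change limits and so not called. Under median-ratio scaling the second was 0.61 and was called. Against DMSO the difference was 0.07, with a 95% interval from -0.10 to 0.25, and under median-ratio scaling it was 0.26 (adjusted p = 0.0085), short of the fold change limit. Gsto1 made up 33.3% of the summed TPM of the members in DMSO, 54.5% in LPS and 51.7% in LPS + Ska.

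The theta-class enzymes Gstt2 and Gstt3 act on small halogenated and sulphate compounds. Gstt3 (chr10:75774115-75781414, minus strand) had 8.42, 9.77 and 9.12 TPM in DMSO, 5.81, 6.34 and 5.28 TPM in LPS, and 8.64, 9.0 and 8.29 TPM in LPS + Ska. Its LPS columns lay below both other groups, which overlapped. The log2 fold change was -0.57 ± 0.10 with LPS (adjusted p = 8.7e-04), just inside the limit, and 0.50 ± 0.10 for LPS + Ska against LPS (adjusted p = 0.0059). It was called lower with LPS in 4 of 17 alternatives, among them the fits without DMSO replicate 5 (-0.62) and without LPS replicate 6 (-0.62). Against DMSO the LPS + Ska level differed by -0.07 (95% interval -0.29 to 0.16), and by 0.10 under median-ratio scaling. Gm20441, with which Gstt3 shares sequence, stayed at or below 0.512 TPM.

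Gstt2 (chr10:75831114-75837424, minus strand) had 6.45, 14.6 and 7.61 TPM in DMSO, and DMSO replicate 6 was about as high as the other 2 samples together. In LPS it had 3.89, 2.87 and 4.92 TPM, all below DMSO, and in LPS + Ska 5.46, 4.85 and 6.07 TPM, which overlapped LPS. The log2 fold change was -1.05 ± 0.26 with LPS (adjusted p = 0.0067). For LPS + Ska against LPS it was 0.42 ± 0.26 (adjusted p = 0.26, 95% interval -0.17 to 1.01). For LPS + Ska against DMSO it was -0.63 ± 0.26 (adjusted p = 0.059), and without DMSO replicate 5 it was -0.85 and was called lower (adjusted p = 0.024). Without DMSO replicate 6, the high sample, it was -0.31 (adjusted p = 0.178).

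Gstz1 encodes the zeta-class enzyme, maleylacetoacetate isomerase of tyrosine breakdown (chr12:87147165-87164723, plus strand, 9 exons). It had 26.0, 28.3 and 26.8 TPM in DMSO, 19.4, 22.2 and 16.6 TPM in LPS, and 18.4, 15.9 and 21.0 TPM in LPS + Ska. Both LPS groups lay below DMSO and overlapped each other. The log2 fold change was -0.46 ± 0.12 with LPS (adjusted p = 0.0089) and -0.54 ± 0.12 with LPS + Ska against DMSO (adjusted p = 0.0038), neither past the limit. Without LPS + Ska replicate 7 the latter was -0.63 and was called lower. LPS + Ska against LPS gave -0.07 ± 0.12, with a 95% interval from -0.35 to 0.20, and its sign turned under median-ratio scaling (0.02).

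The remaining members were at or near 0. Gstm5, a mu-class gene known mainly from brain and testis, had 0.187, 0.227 and 0.231 TPM in DMSO, 0.127, 0.380 and 0 TPM in LPS, and 0.113, 0 and 0.338 TPM in LPS + Ska. These groups overlapped fully. Gsta4, which encodes the alpha-class enzyme for the lipid peroxidation product 4-hydroxynonenal, and Mgst1, which encodes the microsomal enzyme abundant in liver, were listed at 0 in all 9 columns. Of 124 ribosomal protein and proteasome genes, only 3 (Rpl10l, Rpl39l and Rps4l) were listed at 0 in all columns, and the others were above 0 in at least 1 column. Whether a listed 0 means that no transcript was present was not tested.

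**Figure D4:**
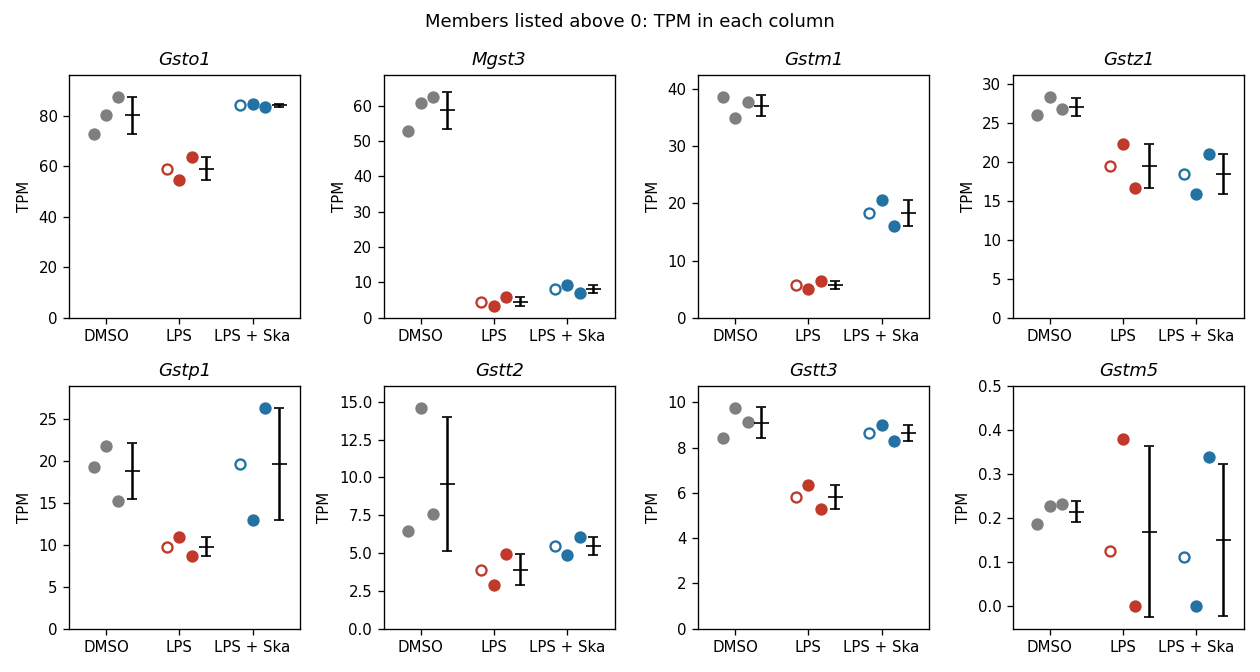
TPM of the 8 genes listed above 0, one panel each, in each column of DMSO (grey), LPS (red) and LPS + Ska (blue), with mean ± SD of the 3 columns as bars. Open circles mark replicate 5 of LPS and LPS + Ska, which is tied to the other 2 columns. Gstm1 has 3 separate levels, and the LPS + Ska columns of Mgst3 reach at most 9.26 TPM beside at least 52.7 TPM in DMSO.

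The wider family was described from a list of 31 genes, of which 29 were in the table and 14 were tested. These 14 include the 7 tested members. With LPS, 9 of the 14 were called lower and 0 higher (median log2 fold change -0.96). Of the 7 without the members, 5 were called lower and 0 higher. Over all tested genes, 20% were called lower and 12.7% higher. For LPS + Ska against LPS, 4 of the 14 were called higher and 0 lower, with a median of 0.50, beside 3.35% and 6.14% of all tested genes. Under median-ratio scaling 7 of the 14 were called higher, and 588 of all 12819 genes. Without that scaling, the single addition to the 3 members was Mgst2, a microsomal relative that can make leukotriene C4. It had 60.6, 57.5 and 58.8 TPM in DMSO, 23.3, 29.6 and 16.9 TPM in LPS, and 57.3, 43.2 and 71.3 TPM in LPS + Ska. Its LPS columns lay below all others, with log2 fold changes of -1.34 ± 0.21 with LPS (adjusted p = 4.0e-04) and 1.27 ± 0.21 for LPS + Ska against LPS (adjusted p = 0.0023). Against DMSO its difference was -0.07, with a 95% interval from -0.53 to 0.39, whereas that of Mgst3 was -2.71.

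Among the eicosanoid relatives, 3 fell with LPS and were also below DMSO with LPS + Ska. Alox5ap, which presents arachidonic acid to 5-lipoxygenase, had means of 305 ± 11.2, 125 ± 4.61 and 176 ± 3.20 TPM in DMSO, LPS and LPS + Ska. Hpgds, the prostaglandin D synthase of the sigma class, had 35.4 ± 3.18, 12.1 ± 1.17 and 14.6 ± 1.83 TPM. Ltc4s, leukotriene C4 synthase, had 14.5 ± 2.82, 1.46 ± 0.586 and 3.62 ± 3.28 TPM, and its LPS + Ska columns ran from 0.343 to 6.90 TPM. For LPS + Ska against LPS none of them was called, with log2 fold changes of 0.49 (adjusted p = 2.5e-04), 0.24 (adjusted p = 0.14) and 0.60 (adjusted p = 0.43). Alox5ap was called higher at the adjusted p alone and under median-ratio scaling (0.59). Ltc4s ran from 0.05 without LPS + Ska replicate 7 to 1.33 without LPS + Ska replicate 6, where it was called higher (adjusted p = 0.0074). Ptges, the inducible prostaglandin E synthase, went the other way. It had 2.44 ± 0.510, 3.57 ± 0.329 and 5.44 ± 0.0735 TPM, and was called higher in LPS + Ska than in DMSO (log2 fold change 0.92 ± 0.14, adjusted p = 2.8e-04). Gstm4, with 2.90 ± 0.494, 1.58 ± 0.412 and 2.06 ± 0.844 TPM, was called lower with LPS (-0.60 ± 0.22, adjusted p = 0.040), a call kept in 9 of 16 alternatives.

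Genes that supply glutathione moved in part with the transferases. Of 6 listed genes, all tested, 3 were called lower with LPS (Gclc, Gsr and Gss) and 1 higher (Slc7a11). Gclc and Gclm are named by the study as raised by skatole on these same samples. With LPS + Ska against LPS, 2 were called higher and 0 lower, with a median log2 fold change of 0.49. Gclm, the modifier subunit of the enzyme that starts glutathione synthesis, had 101 ± 6.68, 71.3 ± 2.94 and 198 ± 24.1 TPM, a log2 fold change of 1.46 ± 0.09 against LPS (adjusted p = 1.6e-05). Slc7a11, the cystine transporter subunit, had 6.73 ± 1.23, 27.8 ± 0.701 and 72.2 ± 8.79 TPM, and so rose in both steps, by 1.91 ± 0.12 and then by 1.34 ± 0.12 (adjusted p = 2.0e-06 and 1.4e-04).

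Of 22 listed genes of conjugate export and breakdown, 12 were tested, with 1 called higher and 5 lower with LPS. For LPS + Ska against LPS, 2 were called higher and 0 lower (median 0.23). These were the dipeptidases Dpep2, with 41.9 ± 2.44, 6.65 ± 0.644 and 13.2 ± 1.06 TPM (log2 fold change 0.89 ± 0.09, adjusted p = 2.9e-04), and Cndp2, with 95.7 ± 6.03, 54.3 ± 1.94 and 86.5 ± 6.44 TPM (0.66 ± 0.07, adjusted p = 3.4e-04). Of the 2 glyoxalase genes, which detoxify methylglyoxal with glutathione, 0 were called in limma in either of these comparisons, and 1 was below an unadjusted p of 0.05 in each. Glo1 gave a log2 fold change of 0.06 (adjusted p = 0.67) and Hagh of -0.37 (adjusted p = 0.039) for LPS + Ska against LPS. Of 13 relatives that share the transferase fold, 8 were tested and 0 were called in either direction for LPS + Ska against LPS, with log2 fold changes of -0.39 for Eef1g and 0.03 for Clic1, which were the most abundant (adjusted p = 0.0063 and 0.78). In limma, 1 of these 8 was below 0.05 by the adjusted p and 3 by the unadjusted p.

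Nrf2 target genes outside the family were listed for comparison, 10 in all, of which 4 also stand in the supply list. With LPS 7 were called lower and 1 higher (median -0.81), and with LPS + Ska against LPS 8 were called higher and 0 lower (median 1.08). The list was chosen with earlier results of these data known. The study names Gclc, Gclm and Nqo1 of this list as raised by skatole on these same samples. Their direction is thus not independent evidence. Cbr3, a carbonyl reductase, had 25.8 ± 2.07, 2.89 ± 0.269 and 16.7 ± 1.38 TPM, a pattern of 3 separate levels like that of Gstm1, with a log2 fold change of 2.19 ± 0.10 against LPS (adjusted p = 3.2e-06). Nqo1, a quinone reductase, had 3.0, 1.99 and 4.02 TPM in LPS + Ska and 0.186, 0.413 and 0 TPM in LPS, with a log2 fold change of 1.72 ± 0.22 (adjusted p = 8.6e-04) that depends on the pseudocount at such levels. Of 5 listed AhR target genes, 3 were tested, with a median of -0.07 for LPS + Ska against LPS. Of these, 1 was called higher, Nqo1, which also stands in the Nrf2 list, and 0 were called lower. Ahrr changed by -0.22 ± 0.17 (adjusted p = 0.36). Against DMSO, Ahrr was called lower both with LPS (-1.16) and with LPS + Ska (-1.38). Cyp1a1 and Cyp1b1 were listed at 0 in all columns. In the list of LPS response genes, 6 of 6 were called higher with LPS, and 2 of 6 were called lower for LPS + Ska against LPS. The latter were Cxcl10, from 39.99 ± 2.13 to 13.6 ± 3.56 TPM, and Il1b, from 28.1 ± 4.18 to 10.2 ± 3.51 TPM.

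Among the macrophage markers, Lyz2, a lysozyme gene, and Mpeg1 were called higher and Fcgr1 lower for LPS + Ska against LPS. The summed TPM of the 10 markers was 12619 to 13612 in DMSO, 7414 to 7810 in LPS and 13767 to 14005 in LPS + Ska. This sum was lowest in LPS, as was that of the members, but most of it was Lyz2 and Cd14. The other 8 markers summed to 2399 to 2638 TPM in DMSO, 1623 to 1710 in LPS and 1540 to 1674 in LPS + Ska, where the last groups overlapped. The part of the marker levels in the values of the members was not tested. All samples came from the same cell line, and TPM is scaled to the total of each sample. The marker sums are thus shares of the RNA and do not count cells. Differences between cells within a sample were not tested.

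**Figure D5:**
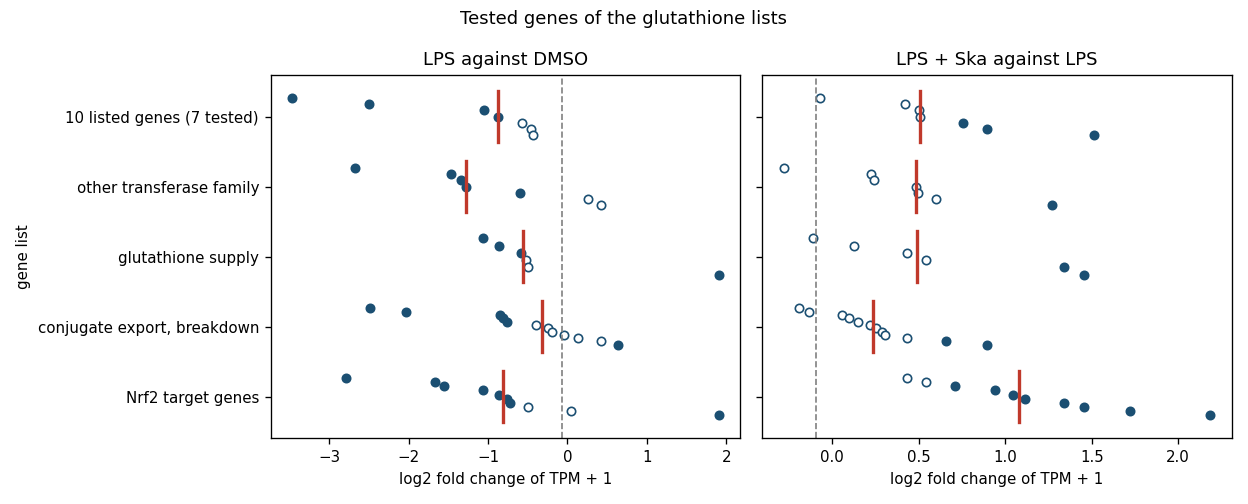
Log2 fold change of TPM + 1 of each tested gene in 5 gene lists for LPS against DMSO (left) and LPS + Ska against LPS (right). Filled circles are called genes, red bars the list medians and the dashed line the median over all tested genes. For LPS + Ska against LPS the medians are 0.51 for the 7 tested members and 1.08 for the Nrf2 target genes. The lists were chosen with earlier results of these data known.

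The genes whose pattern was most like that of Gstm1 were Lipa, Bst1, Creg1, Tubb2a and Kctd7, with Pearson r of log2(TPM + 1) from 0.989 to 0.995 over the 9 columns. The LPS columns and the LPS + Ska columns are each tied, and r mostly reflects 3 group levels. Lipa, lysosomal acid lipase, had 513 ± 38.6, 177 ± 5.07 and 332 ± 36.0 TPM, and Creg1, a lysosomal glycoprotein, had 264 ± 6.71, 90.8 ± 2.21 and 180 ± 1.33 TPM. Among the members, Mgst3 (r = 0.905) and Gstt3 (r = 0.902) came nearest to Gstm1, at places 384 and 399 of 12818 genes.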

How the data were processed

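RNA from RAW264.7 cells was sequenced by the authors in 9 samples (3 per group), with the NEBNext Ultra RNA kit, which does not mark strand. The authors deposited TPM in 1 table of 55401 genes by Ensembl identifier, of which 55141 had a symbol in the reference table. The submitters' processing notes name fastp 0.20.1, HISAT2 2.2.1, StringTie 2.0 and mm10. TPM keeps no depth, so depth is unknown and no counting interval was given.

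The 10 members and the gene lists were chosen with earlier results of these data known. The 12819 genes with a mean of at least 1 TPM were fitted over all 9 columns by limma 3.58.1 (R 4.3.3; lmFit, then eBayes with its trend option). Values were log2(TPM + 1), a scale that understates the change of low genes. Benjamini-Hochberg adjustment ran over all of them. A call needed an adjusted p below 0.05 together with a fold change outside the range from 0.67 to 1.5. The fit was tested on simulated data with independent columns. These lacked the tie between replicates, so the error rate under the tie was not tested. The text names the 10 members, the other family genes with a mean of at least 1 TPM, up to 4 called genes per list (or the 2 of highest mean), and the 5 genes most like Gstm1.

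Replicate numbers recur in all groups. After subtraction of the group means, columns with the same number correlated at -0.0063, 0.0548 and 0.0085 between DMSO and LPS, at 0.0801, 0.0263 and -0.032 between DMSO and LPS + Ska, and at 0.3835, 0.1509 and 0.1281 between LPS and LPS + Ska, whose columns are tied. The numbers were not taken to pair samples. Coordinates and transcripts are from GENCODE M21 (GRCm38, the same build as mm10), and promoters from RefSeq. Alternatives covered the pseudocount, filters, scaling, samples in the fit, the intensity trend, the call rule, a replicate block, each left-out column and recovered values, taken as replicate 5 plus and minus 0.5 times its difference from replicate 6. The sum of Gstp1 and Gstp2 was added after the data had been seen.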

Additional observations from a re-analysis of the deposited data

How the results depend on the processing

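The counts of called members were the same or within 1.5 times in 99 of 102 recomputed values. These include counts that were 0 and stayed at 0: higher with LPS, lower for LPS + Ska against LPS, and higher for LPS + Ska against DMSO. A fall from 3 to 2 also stands as within 1.5 times, so this share does not measure how stable each call was. At the adjusted p alone, 7 members were lower in LPS than in DMSO and 5 were raised by LPS + Ska over LPS, and median-ratio scaling also gave 5. Of all 12819 tested genes, the adjusted p alone gave 4380 as lower with LPS. It gave 1139 as higher and 2524 as lower for LPS + Ska against LPS. Leaving out 1 column at a time, 4 to 5 members were called lower with LPS, 2 to 3 were called higher against LPS under LPS + Ska, and 2 to 3 lower against DMSO. With the replicate number as a block the counts were 4, 3 and 2, as without it, and no call of a member changed. Since the numbers were not shown to pair the samples, this is only a check. With the recovered values they were also 4, 3 and 2. For LPS + Ska against LPS, the adjusted p in limma then was 3.4e-04 for Gstm1, 0.012 for Mgst3 and 0.017 for Gstp1. With all columns it was 3.9e-05, 0.0096 and 0.017. The recovered values lie nearer to each other than replicates 6 and 7, so they cannot show whether the tie alters the calls. In this comparison the SE of Gstp1 was 0.197 with them and 0.224 with all columns. No fit left out replicate 5 of both treated groups. Without replicate 5 of LPS or of LPS + Ska alone, Gstp1 was not called (adjusted p in limma 0.054 and 0.059). Of 357 fold changes of single members, 332 kept their direction and their call, 13 gained a call, 4 lost it and 8 changed sign, all 8 in comparisons in which the member was not called. Gstz1 in LPS + Ska against LPS was 0.0236 under median-ratio scaling, and from -0.1725 to 0.0275 with 1 column left out, above 0 when replicate 6 of either group was missing. Gstp1 in LPS + Ska against DMSO ran from -0.2056 to 0.2788 with 1 column left out, below 0 without DMSO replicate 7, LPS + Ska replicate 5 or LPS + Ska replicate 7, and was -0.0095 when summed with Gstp2. Gstt3 in the same comparison was 0.10 under median-ratio scaling. The cause of these turns was not tested. What depth limits cannot be said from TPM, and the tied columns leave 2 values per gene in the LPS and LPS + Ska groups.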

Other observations

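Several family genes that were too low to be tested were listed at 0 in all DMSO columns and above 0 with LPS. Gstt1, the theta-class neighbour of Gstt3, had 0.987, 1.11 and 0.867 TPM in LPS and 0.748, 0.864 and 0.632 TPM in LPS + Ska. Gstp3, another pi-class gene of the cluster, had 0.869, 1.08 and 0.657 TPM in LPS and 1.05, 0.494 and 1.60 TPM in LPS + Ska. Gstt4 had 0.831, 0.771 and 0.891 TPM in LPS and 0.307, 0 and 0.632 TPM in LPS + Ska. No fold is given against a group listed at 0. These genes had 0 shared 100-base stretches with other genes. With no filter on low values, 3 genes of the family list were called higher with LPS, where the fit with a filter had called 0. Over all genes, 1821 of 25181 were called higher with no filter, and 1630 of 12819 with it. How many of all genes went from a listed 0 to above 0 was not counted.

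Gstk1, the kappa-class gene, was listed at 0 in all columns, as were Gstm2, Gstm6 and Gstm7 of the mu class. The mu class, mostly Gstm1 with Gstm4 next, summed to 40.2 ± 2.11 TPM in DMSO, 7.51 ± 0.878 TPM in LPS and 20.5 ± 2.99 TPM in LPS + Ska. The 3 microsomal genes Mgst1 to Mgst3 summed to 118 ± 4.0, 27.7 ± 5.09 and 65.4 ± 13.0 TPM, and most of the sum in LPS + Ska was Mgst2.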
